A study of Mus musculus with 4 samples.

Results

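Interferon-stimulated and MHC genes were followed across cell classes and libraries of the mouse ascending aorta. The module holds 33 genes of a list drawn up by name, with earlier results of these data known and with no threshold on measured values, of 18107 genes common to the 3 count files used. Its members are 20 interferon-stimulated genes, 8 genes of MHC class I and its peptide supply, and 5 genes of MHC class II. The study asked how cells derived from the second heart field (SHF) and cells of other origins respond to angiotensin II (AngII), the peptide of the renin system that constricts vessels and is infused in mice to induce aortic disease. All mice were males of the Mef2c-mTmG strain, in which a 2-colour membrane reporter separates cells by lineage, and the labels give neither their age nor how many mice entered a library. Living single cells of the digested aorta were sorted on the reporter and made into droplet-based 3′-end RNA libraries. The 3 libraries analysed were SHF baseline (no infusion), SHF AngII (infusion for 3 days) and CNC AngII (infusion for 3 days). CNC is the labels' name for the other sorted fraction and is not spelled out there. A CNC baseline sample is labelled too and was not analysed here. Since each group is 1 library, nothing below was checked against replicates and no test between conditions was possible.

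Interferons are signalling proteins released in response to viral or self nucleic acids. Type I interferon acts through the receptor Ifnar1/Ifnar2, the kinases Jak1 and Tyk2 and transcription factors that include Stat2 and Irf9, which bind interferon-stimulated response elements. Interferon gamma acts through Ifngr1/Ifngr2, and its response is read out at gamma-activated sites. MHC class I shows peptides of a cell's own proteins on nearly every nucleated cell, whereas class II shows peptides of engulfed proteins mainly on macrophages, dendritic cells and B cells.

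Cells were assigned to 3 classes by their raw UMI counts (unique molecular identifiers, each a captured transcript molecule). Smooth muscle cells had at least 5 UMIs of Myh11 and none of Pdgfra. Fibroblast cells had at least 1 UMI of Pdgfra and at most 2 of Myh11. Macrophage cells had at least 10 UMIs of C1qa, C1qb and Lyz2 together and fewer than 5 of Myh11. In the order SHF baseline, SHF AngII and CNC AngII, which is kept throughout, 2259, 4649 and 6385 cells met the smooth muscle gate. The fibroblast gate held 3939, 2640 and 842 cells. The macrophage gate held 8, 13 and 1764 cells, 0.0955%, 0.140% and 17.3% of the cells kept. In 1, 2 and 8 cells both the fibroblast and the macrophage gate were met. The classes matched their markers outside the gates: 6 further smooth muscle markers summed to 54824 to 62338 CPM (UMIs per 1e+06 UMIs of the cells summed) in smooth muscle cells and to 1297 to 4058 CPM in fibroblast cells, and 6 further fibroblast markers summed to 11899 to 26449 CPM in fibroblast cells and to 1191 to 1425 CPM in smooth muscle cells. The exception was the macrophage gate of the SHF libraries, whose few cells also held fibroblast markers at 10481 and 5163 CPM, against 123 CPM in CNC AngII, and in SHF AngII smooth muscle markers at 6875 CPM, against 402 CPM in CNC AngII. The libraries held 92474476 to 150954701 UMIs, and pairs of libraries shared 29 to 34 cell barcodes. The SHF baseline file uses another gene annotation than both AngII files. For SHF AngII against SHF baseline, treatment, annotation and all else that differed between those libraries therefore cannot be told apart.

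The sequences before the start sites show which known elements lie near members whose levels differed. RefSeq windows (GRCm38.p6) of the 250 bases before a start were found by name for 29 of the 33 members, all but Usp18, Rtp4, H2-Ab1 and Ciita. Both strands were searched for 4 elements, over all 32851 windows of that length. The interferon-stimulated response element, searched as GAAA, 2 bases of any kind and GAAA again (TTTC on the other strand), lay in 2.98% of all windows, and in windows of 11 of the 18 matched interferon-stimulated members, of B2m and H2-T23 in class I, and of none of the 3 matched class II members. The gamma-activated site, TTCNNNGAA, lay in 7.02% of all windows and in those of Ifit2, Irf1, Bst2, Gbp7, Igtp and Psmb8. The kappaB element of class I genes, in the spelling that the H2-K1 window below shows in capitals, lay in 0.0304% of all windows, among them H2-K1 and H2-D1. The inverted CCAAT box in the spelling CTGATTGG, the part of the class II promoter known as the Y box, lay in 3.83% of all windows. It lay in those of 6 members, Psmb9, Tap1, H2-D1 and H2-T23 in class I and H2-Aa and H2-Eb1 in class II. A match shows only that these letters are present.

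Below are 6 windows, 5′ to 3′ on the strand of the gene, each ending at the base before the annotated start and none overlapping an annotated exon. Isg15 (chr4:156200819-156201068, minus strand), Bst2 (chr8:71537473-71537722, minus strand) and Ifit3 (chr19:34583279-34583528, plus strand) are shown, with the response elements in capitals, as the members that were 1.5-fold higher after AngII in SHF fibroblast cells and whose windows held such an element and overlapped no annotated exon. The window of Irf7, the member with the next highest ratio after Isg15, held none. In Isg15 3 copies overlap, from 78 to 57 bases before the start. In Bst2 a gamma-activated site overlaps the response element and is not marked apart. Gbp7 (chr3:142530086-142530335, plus strand) is shown as a member that was lower, with its response element and 2 gamma-activated sites in capitals. H2-K1 (chr17:34000348-34000597, minus strand) has its kappaB element in capitals, and H2-Aa (chr17:34287824-34288073, minus strand) its inverted CCAAT box.
Isg15: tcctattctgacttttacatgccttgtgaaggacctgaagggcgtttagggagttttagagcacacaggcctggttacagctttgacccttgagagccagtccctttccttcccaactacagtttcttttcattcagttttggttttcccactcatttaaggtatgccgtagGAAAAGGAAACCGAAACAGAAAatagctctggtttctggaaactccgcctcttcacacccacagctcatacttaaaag
Bst2: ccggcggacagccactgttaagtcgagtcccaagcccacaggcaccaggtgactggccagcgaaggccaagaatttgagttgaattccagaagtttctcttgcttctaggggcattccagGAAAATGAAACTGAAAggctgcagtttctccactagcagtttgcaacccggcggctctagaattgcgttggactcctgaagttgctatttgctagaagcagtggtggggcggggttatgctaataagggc
Ifit3: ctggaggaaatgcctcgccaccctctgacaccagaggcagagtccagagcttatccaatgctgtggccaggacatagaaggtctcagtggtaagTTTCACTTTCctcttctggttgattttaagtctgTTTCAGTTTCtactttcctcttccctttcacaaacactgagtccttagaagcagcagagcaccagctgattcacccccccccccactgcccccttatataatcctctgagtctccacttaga
Gbp7: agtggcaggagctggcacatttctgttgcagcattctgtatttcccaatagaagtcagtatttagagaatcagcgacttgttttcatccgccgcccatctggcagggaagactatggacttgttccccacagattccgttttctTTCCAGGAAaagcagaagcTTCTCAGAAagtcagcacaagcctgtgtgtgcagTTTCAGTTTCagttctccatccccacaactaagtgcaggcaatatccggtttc
H2-K1: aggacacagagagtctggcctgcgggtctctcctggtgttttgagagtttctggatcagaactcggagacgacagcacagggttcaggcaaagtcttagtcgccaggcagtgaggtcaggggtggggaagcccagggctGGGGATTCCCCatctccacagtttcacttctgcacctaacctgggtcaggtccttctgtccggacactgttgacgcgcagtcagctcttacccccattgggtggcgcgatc
H2-Aa: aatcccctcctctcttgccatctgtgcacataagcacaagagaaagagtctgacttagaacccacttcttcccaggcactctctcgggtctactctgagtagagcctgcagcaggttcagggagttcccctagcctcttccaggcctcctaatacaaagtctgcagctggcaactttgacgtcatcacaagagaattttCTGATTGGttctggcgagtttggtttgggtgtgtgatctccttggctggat

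Within each library most interferon-stimulated members were higher in fibroblast cells than in smooth muscle cells. Among the 20 members, 20, 19 and 20 were above their smooth muscle level, the exception being Ifit2 in SHF AngII (7.33 against 8.05 CPM), which was also nearly level in CNC AngII (8.91 against 8.75 CPM). Counting only members with a mean of at least 10 CPM over both classes, 11 of 12, 14 of 14 and 15 of 15 were at least 1.5-fold higher in fibroblast cells and none was 1.5-fold lower. Of all genes above that level, 24.6%, 22.6% and 21.8% were 1.5-fold higher in fibroblast cells. The remaining 8, 6 and 5 interferon-stimulated members lay below the minimum. The class I members above the minimum were 1.5-fold higher in 7 of 7, 6 of 7 and 8 of 8 cases. Summed over the 20 interferon-stimulated genes, levels were 959, 1204 and 1042 CPM in smooth muscle cells and 2987, 4547 and 5355 CPM in fibroblast cells. The sums were led by the membrane restriction factors Ifitm3 and Ifitm2, which block entry of viruses.

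**Figure D1:**
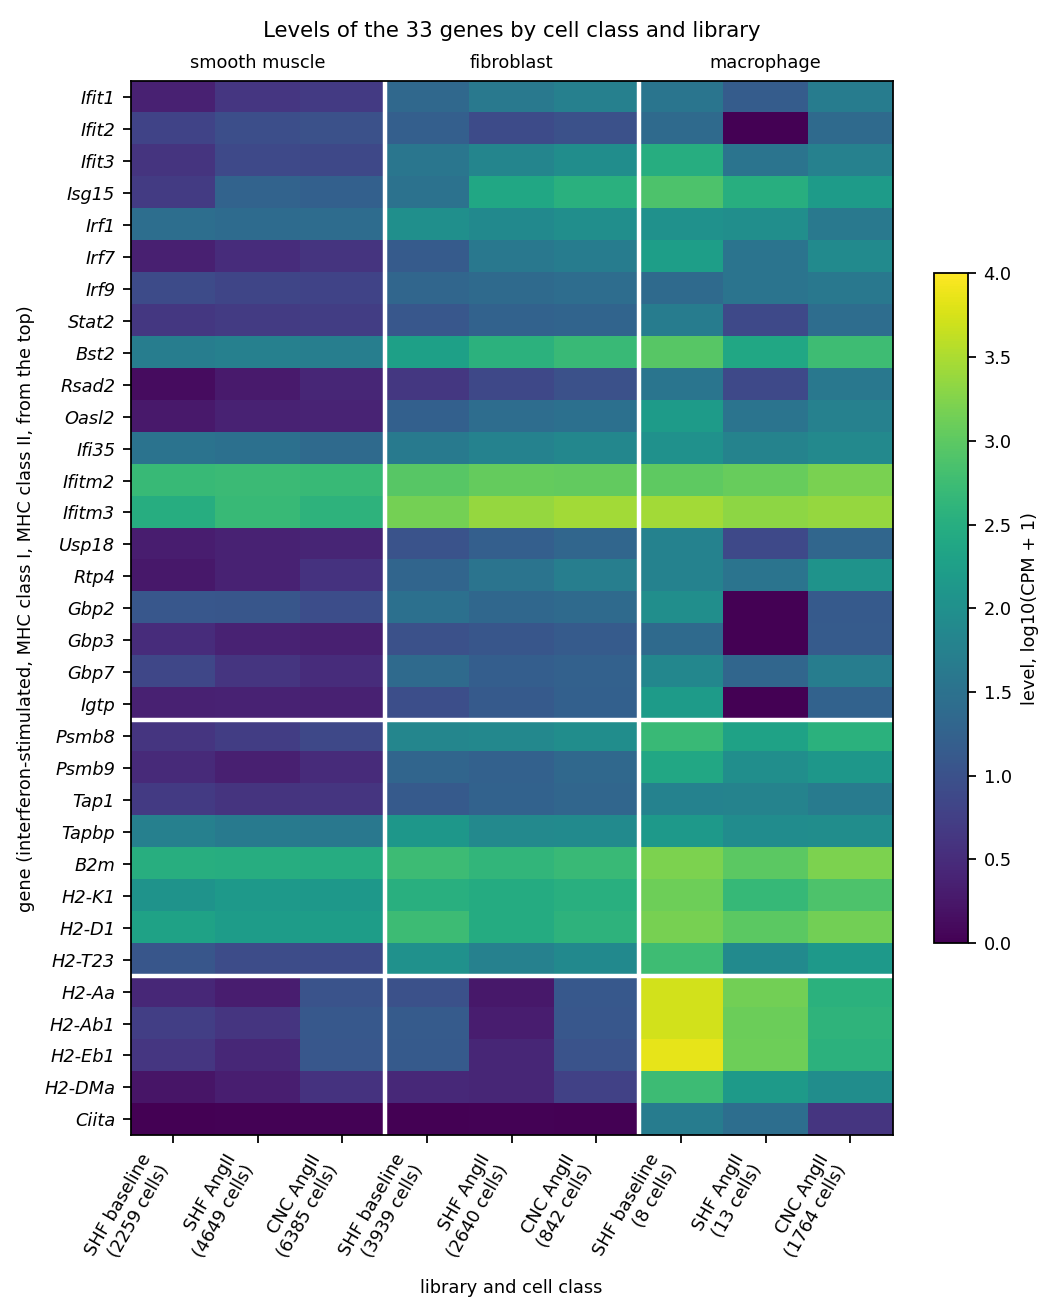
Heatmap of the level of each of the 33 genes, as log10(CPM + 1) on a colour scale, with genes as rows and the 3 libraries within each of 3 cell classes as columns. Fibroblast columns are brighter than smooth muscle columns for nearly all interferon-stimulated and class I genes, and class II genes are bright only in the macrophage columns, of which SHF baseline and SHF AngII rest on 8 and 13 cells.

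In fibroblast cells of the SHF libraries, 9 interferon-stimulated genes, led by Isg15, Irf7 and Bst2, stood higher after AngII than at baseline. Ifit2, Gbp7 and 3 class I genes stood lower, in a comparison where 27.6% of all genes did. A gene is counted as higher or lower here if its CPM, with 1 CPM added to each, differed at least 1.5-fold and its mean was at least 10 CPM. By that rule 9 interferon-stimulated members were higher and 2 lower, of 18 above the minimum and 20 in all. Of all 7692 genes above the minimum, 10.5% were higher and 27.6% lower. The median log2 ratio was 0.61 for these 18 members and -0.21 for all genes. Other properties of the fibroblast cells moved with these values: from SHF baseline to SHF AngII their smooth muscle markers went from 1297 to 4058 CPM, their fibroblast markers from 26449 to 14032 CPM and their median mitochondrial share from 4.09% to 2.82%, and the part of these in the ratios was not tested. Scaling the libraries by the trimmed mean of M values (TMM) moved the median of all genes to -0.02, the higher share among all genes past the line from 27.6% to 48.6%, and the members' count to 12 higher and 1 lower.

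Isg15, a ubiquitin-like protein attached to other proteins under interferon, differed most. Its level in fibroblast cells was 30.9, 236 and 346 CPM, a log2 ratio of 2.90 for SHF AngII over SHF baseline (95% counting interval of the raw ratio 2.85 to 3.03). Both AngII libraries lay far above the baseline library. Such intervals cover counting error only, not the spread between mice. Irf7, the transcription factor that amplifies type I interferon production, stood at 13.1, 38.4 and 47.3 CPM, a log2 ratio of 1.48. Bst2 (tetherin, which holds budding viruses on the cell surface) stood at 183, 369.5 and 515 CPM, a log2 ratio of 1.01 (0.97 to 1.05). Each of these was lowest in SHF baseline and highest in CNC AngII.

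The Ifit proteins bind viral RNA or partner proteins, and the family was split. Ifit1 stood at 21.4, 41.1 and 53.5 CPM, a log2 ratio of 0.91 for SHF AngII over SHF baseline. Ifit3 stood at 36.6, 65.5 and 89.6 CPM, a log2 ratio of 0.82. Ifit2 went the other way, with 15.3, 7.33 and 8.91 CPM and a log2 ratio of -0.97 (-1.26 to -0.87), which was -0.55 and short of 1.5-fold with a pseudocount of 10 CPM. The 3 genes lie near each other on chromosome 19 (Ifit2 at 34550694 to 34576419, Ifit3 at 34583531 to 34588731 and Ifit1 at 34640871 to 34650009, GRCm38). Ifit3 has a near-identical copy, Ifit3b, so its count depends on how shared reads were assigned.

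Ifitm3 stood at 1483, 2327 and 2803 CPM in fibroblast cells, a log2 ratio of 0.65 between the SHF libraries, and was the highest member by level in every library there. Its paralog Ifitm2 stood at 915, 1146 and 1109 CPM, a log2 ratio of 0.32, below the 1.5-fold line. Reads of these similar genes may be hard to separate. Oasl2, of the oligoadenylate synthetase family, stood at 16.1, 26.3 and 29.2 CPM (log2 ratio 0.67). Usp18, which removes Isg15 from proteins and dampens receptor signalling, stood at 9.55, 15.4 and 20.3 CPM (log2 ratio 0.64). Rtp4 stood at 18.8, 33.8 and 51.1 CPM (log2 ratio 0.81). All 3 were thus lowest in SHF baseline, and Oasl2 and Usp18 were only just past the line, which both missed with the stricter cell filter (0.56 and 0.47) and with a pseudocount of 10 CPM (0.47 and 0.38), and Oasl2 also after thinning (0.57).

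The signalling factors and the guanylate-binding genes differed less. Stat2 stood at 11.1, 17.1 and 18.2 CPM, a log2 ratio of 0.58 that just missed 1.5-fold. Irf9, its partner, stood at 20.2, 22.8 and 25.5 CPM. Ifi35 stood at 42.9, 57.7 and 68.8 CPM, a log2 ratio of 0.42. Irf1, a factor of the interferon gamma response, went the other way with 96.5, 77.9 and 93.5 CPM (log2 ratio -0.31). The GTPases Gbp2 and Gbp7, which attack the vacuoles of intracellular microbes, were also lower in SHF AngII. Gbp2 stood at 29.2, 20.4 and 23.1 CPM (log2 ratio -0.50). Gbp7 stood at 23.4, 14.7 and 16.2 CPM (log2 ratio -0.63, interval -0.82 to -0.52), and it missed the 1.5-fold line under 5 of 11 processing alternatives (-0.58 to -0.37). Igtp, a related GTPase, was in contrast at 8.26, 12.4 and 15.6 CPM (log2 ratio 0.53). Rsad2 and Gbp3 lay below the minimum, between 3.46 and 10.9 CPM in the SHF libraries. Among the 7 matched members that were 1.5-fold higher, 4 had a response element in the window, as did 2 of the 5 lower ones, Gbp7 and H2-T23.

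**Figure D2:**
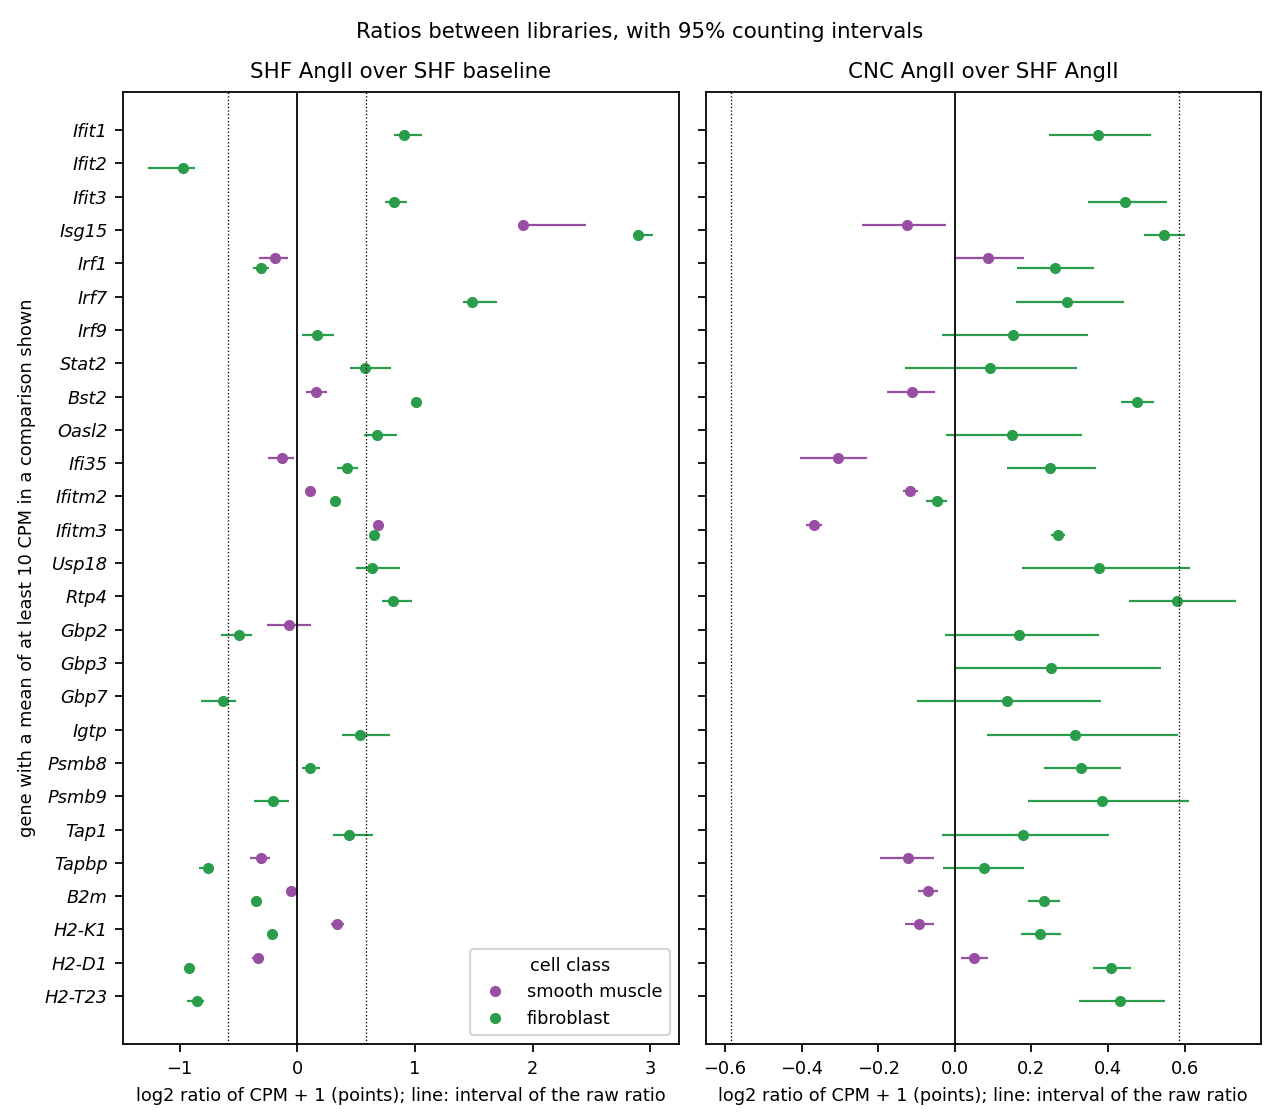
Log2 ratios of CPM + 1 for each member with a mean of at least 10 CPM (points, purple for smooth muscle and green for fibroblast cells), SHF AngII over SHF baseline on the left and CNC AngII over SHF AngII on the right, with 95% counting intervals of the raw ratio as lines and 1.5-fold as dotted lines. The 2 panels have different x scales. On the left Isg15 lies at 2.90 in fibroblast cells and 1.92 in smooth muscle cells, and on the right no point passes a dotted line.

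MHC class I genes did not follow the antiviral genes in fibroblast cells. Of 8 class I members, all above the minimum, none was 1.5-fold higher in SHF AngII and 3 were lower, beside 27.6% of all genes lower. Their median log2 ratio was -0.28, beside -0.21 for all genes, and TMM scaling gave 1 higher and 2 lower. The heavy chains and their partners are given first. H2-D1 stood at 551, 291 and 386 CPM, a log2 ratio of -0.92 (-0.96 to -0.89). H2-K1, the other classical heavy chain measured, stood at 331, 285 and 333 CPM, a log2 ratio of -0.21. The nonclassical H2-T23 stood at 103, 56.7 and 76.7 CPM, a log2 ratio of -0.85, which was -0.58 and short of 1.5-fold after thinning to 5000 UMIs per cell. B2m, the light chain of all of them, stood at 549, 430.5 and 506 CPM, a log2 ratio of -0.35. All 4 were lowest in SHF AngII. H2-K1, H2-D1 and H2-T23 belong to a family of near-identical genes, so their shares of the family's reads are uncertain, and more so across the annotations.

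The peptide supply was mixed. Tapbp (tapasin, which bridges class I to the peptide transporter) stood at 129.6, 75.9 and 80.1 CPM, a log2 ratio of -0.76 that was -0.56 under TMM scaling. Tap1, a subunit of that transporter, stood at 12.4, 17.3 and 19.6 CPM, a log2 ratio of 0.44. Psmb8 and Psmb9 are immunoproteasome subunits, which replace Psmb5 and Psmb6 under interferon. Psmb8 stood at 67.0, 72.5 and 91.4 CPM (log2 ratio 0.11) and Psmb9 at 19.2, 16.5 and 21.8 CPM (log2 ratio -0.21). Psmb5 itself stood at 184, 277 and 272 CPM, 1.5-fold higher in SHF AngII (log2 ratio 0.59). The immunoproteasome members were thus not among the genes past 1.5-fold. Psmb5 was only just past that line, and was the 1 of 3 constitutive subunits that passed it. Their median log2 ratio was 0.44 and the lowest 0.25.

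In smooth muscle cells only 7 interferon-stimulated members reached the minimum between the SHF libraries, of which 2 were higher in SHF AngII and none lower. Of all 6999 genes, 8.76% were higher and 15.6% lower. TMM scaling moved the median of all genes from -0.10 to 0.07 there, and the higher share among all genes past the line from 36.0% to 62.3%. Isg15 stood at 3.89, 17.5 and 15.9 CPM, a log2 ratio of 1.92 (raw interval 1.89 to 2.45) at a mean of 10.7 CPM, just above the minimum. It was higher in both AngII libraries but remained below its level in fibroblast cells at baseline. Ifitm3 stood at 305, 491 and 381 CPM, a log2 ratio of 0.69. With the stricter cell filter (1000 genes or more and a mitochondrial share of 5% or less) that ratio was 0.10, from only 120 SHF baseline smooth muscle cells.

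The other members above the minimum differed little in smooth muscle cells. Ifitm2 stood at 497, 535 and 494 CPM (log2 ratio 0.11). Bst2 stood at 48.9, 54.8 and 50.7 CPM (log2 ratio 0.16). Irf1 stood at 27.4, 23.8 and 25.3 CPM (log2 ratio -0.19). None of these reached 1.5-fold. Ifi35 stood at 31.9, 29.0 and 23.3 CPM and Gbp2 at 11.3, 10.8 and 7.76 CPM, and their ratios (-0.13 and -0.07) turned to 0.04 and 0.10 under TMM scaling. The 13 members below the minimum included Ifit1 at 1.35, 3.22 and 3.85 CPM, Ifit3 at 2.94, 6.74 and 6.27 CPM, and Ifit2 at 5.48, 8.05 and 8.75 CPM. Also there were Irf7 (1.29, 2.20 and 3.03 CPM), Oasl2 (0.846, 1.45 and 1.52 CPM), Usp18 (1.08, 1.44 and 1.62 CPM), Rtp4 (0.778, 1.40 and 2.90 CPM), Gbp7 (6.23, 3.21 and 2.20 CPM) and Igtp (1.32, 1.40 and 1.32 CPM). The last 4, Irf9, Stat2, Rsad2 and Gbp3, lay between 0.338 and 7.07 CPM. Of the members below the minimum, Ifit1 and Ifit3 were past 1.5-fold higher in SHF AngII and Gbp7 past 1.5-fold lower. Their log2 ratios were 0.84 (raw interval 0.76 to 1.78), 0.97 (0.86 to 1.54) and -0.78 (-1.24 to -0.67). By the rule used here they are not counted.

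No class I gene differed by 1.5-fold in smooth muscle cells, where 4 of 8 members were above the minimum, with a median log2 ratio of -0.18 beside -0.10 for all genes. B2m stood at 327, 315 and 300.1 CPM, a log2 ratio of -0.05 that was 0.13 under TMM scaling. H2-K1 stood at 114, 144 and 135 CPM (log2 ratio 0.34). H2-D1 stood at 201, 159.7 and 165 CPM (log2 ratio -0.33). The 2 classical heavy chains thus lay on opposite sides of 0. Tapbp stood at 53.5, 43.0 and 39.4 CPM (log2 ratio -0.31). H2-T23 (10.8, 7.66 and 7.15 CPM), Psmb8 (3.15, 4.40 and 6.43 CPM), Psmb9 (2.03, 1.28 and 2.06 CPM) and Tap1 (3.82, 3.02 and 3.13 CPM) were below the minimum.

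Between the AngII libraries, which share a gene list, no member with a mean of at least 10 CPM differed by 1.5-fold in either class. Below that minimum, Rtp4 in smooth muscle cells (log2 ratio 0.70) and 4 class II members in both classes, described with class II, were past that fold. Among all genes, 1.24% were higher and 1.06% lower in CNC AngII in fibroblast cells, and 0.938% and 1.01% in smooth muscle cells. In fibroblast cells 17 of 18 measured interferon-stimulated members and 8 of 8 class I members were nonetheless above SHF AngII, with median log2 ratios of 0.26 and 0.28 beside 0.01 for all genes. The highest were Rtp4 at 0.58 (0.45 to 0.73), Isg15 at 0.55 (0.50 to 0.60) and Bst2 at 0.48 (0.43 to 0.52). Only Ifitm2 lay below, at -0.05. Rtp4 and Isg15 passed 1.5-fold with stricter gates (0.68 and 0.62) and after thinning to 5000 UMIs per cell (0.83 and 0.83), where Psmb9 did too (0.75), and Rtp4 also with doublets kept (0.63). In smooth muscle cells the sides were the opposite: 1 of 6 interferon-stimulated members (Irf1, 0.09) and 1 of 4 class I members (H2-D1, 0.05) were above 0, and the lowest was Ifitm3 at -0.37. With the stricter cell filter Isg15 stood at -0.69 there, past the line. The 10 macrophage markers outside the gate summed in smooth muscle cells to 2.33 CPM (SHF AngII) and 145 CPM (CNC AngII), and in fibroblast cells to 17.9 and 113 CPM. The part of macrophage transcripts in these ratios was not tested. With all cells holding a UMI of C1qa, C1qb or Lyz2 left out, the interferon-stimulated median was 0.25 in fibroblast cells and -0.31 in smooth muscle cells, and the class I median in fibroblast cells was 0.25. That step took out 44.7% of fibroblast and 44.1% of smooth muscle cells in CNC AngII, but 10.3% and 0.280% in SHF AngII. It leaves free RNA in the cells kept.

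The higher levels in fibroblast cells were seen across many cells, but unevenly. Each cell, gated on its full counts, was thinned to 5000 UMIs, which left 3222, 2504 and 769 fibroblast cells and 2214, 4590 and 6303 smooth muscle cells. UMIs of the 18 interferon-stimulated members other than Ifitm2 and Ifitm3 were counted. The mean per fibroblast cell was 2.88, 5.54 and 7.60 UMIs and the median 2, 3 and 5. Cells with at least 5 such UMIs made up 15.95%, 35.8% and 50.6%, and cells with none 15.6%, 9.46% and 6.76%. Cells with 15 or more made up 1.46%, 7.71% and 12.0%. The tenth of cells with the most UMIs held 38.5%, 43.6% and 42.2% of them, a larger share in the AngII libraries. Smooth muscle cells had a mean of 0.794, 0.898 and 0.791 such UMIs, and 49.1%, 51.2% and 57.1% of cells had none. The tenth with the most UMIs held 37.6%, 47.9% and 52.4% there, again a larger share in the AngII libraries.

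At the same thinned depth, Isg15 was found in 6.80%, 30.8% and 41.4% of fibroblast cells and in 1.45%, 3.49% and 3.40% of smooth muscle cells. Without thinning, cells differ in depth, with a median of 9534, 15485.5 and 12379.5 UMIs per fibroblast cell. Bst2 was found in 49.4%, 68.9% and 75.4% of fibroblast cells and in 20.96%, 20.7% and 17.7% of smooth muscle cells. H2-D1, in contrast, was found in 89.8%, 71.6% and 81.8% of fibroblast cells. As a gauge of free or foreign RNA, the macrophage gene Lyz2 was found in 2.02%, 3.67% and 11.2% of fibroblast cells and in 0.136%, 0.0654% and 11.7% of smooth muscle cells. The Isg15 share in smooth muscle cells thus lies below the Lyz2 share in CNC AngII (3.40% against 11.7%). In SHF AngII it lies above it (3.49% against 0.0654%). The 2 shares are not on 1 scale, since thinned CNC AngII macrophage cells held a mean of 54.0 Lyz2 and 0.821 Isg15 UMIs. The part of free RNA in the Isg15 shares was not tested.

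**Figure D3:**
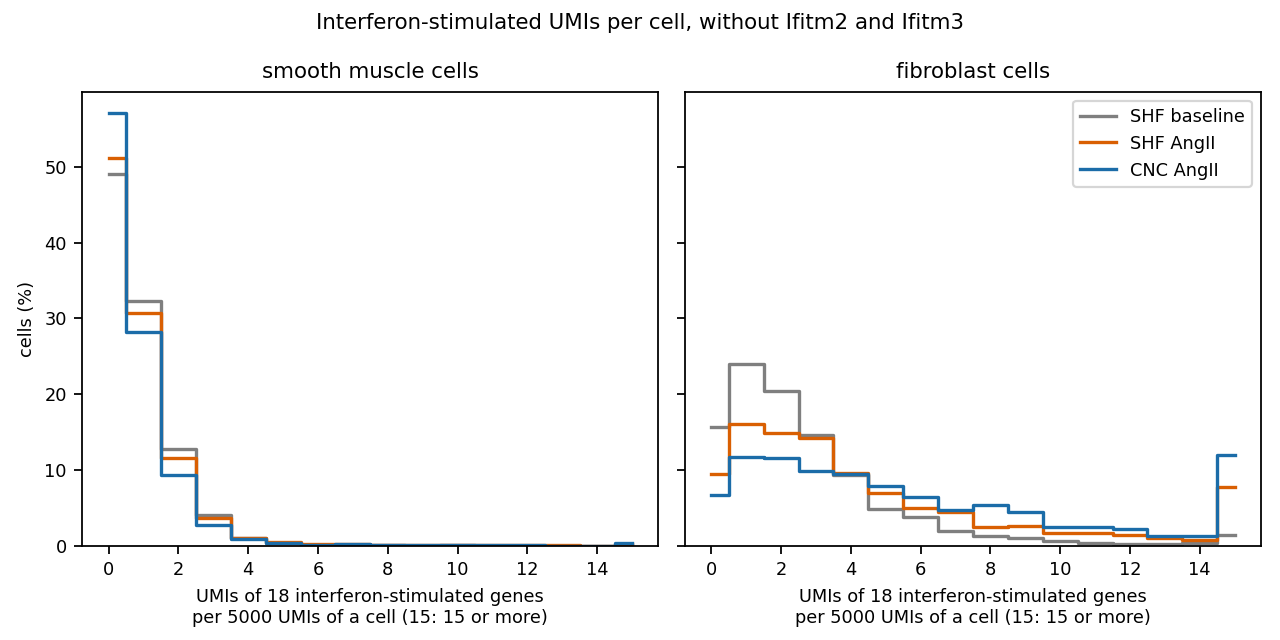
Share of smooth muscle cells (left) and fibroblast cells (right) by the number of UMIs of 18 interferon-stimulated genes after thinning each cell to 5000 UMIs, with 15 standing for 15 or more and 1 line per library. The fibroblast lines of both AngII libraries lie to the right of the baseline line, with medians of 3 and 5 against 2, while the smooth muscle lines lie close together.

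Fibroblast cells were also split by Pi16, a marker of adventitial progenitor-like fibroblasts. In cells with a Pi16 UMI (3389, 2375 and 715 cells), Isg15 stood at 27.3, 241 and 353 CPM. In cells without one (550, 265 and 127 cells), it stood at 53.8, 185 and 293 CPM. The gene was higher in both AngII libraries than at baseline in both subsets. Bst2 was too, at 186, 379 and 525 CPM with Pi16 and 169, 255 and 440.5 CPM without. In the Pi16 subset 10 of 17 measured interferon-stimulated members were 1.5-fold higher after AngII in the SHF libraries and 2 lower (10.4% and 27.9% of all genes), and without Pi16 7 of 18 were higher and 1 lower (13.5% and 24.3% of all genes). Between the AngII libraries the subsets were not alike. With Pi16, 17 of 18 measured interferon-stimulated members were above SHF AngII in CNC AngII, 1 of them (Rtp4) 1.5-fold higher and none lower (1.17% and 1.01% of all genes), with a median log2 ratio of 0.29. Without Pi16, 8 of 19 were above, 2 were 1.5-fold higher and 4 lower (4.34% and 6.32% of all genes), and the median was -0.04. The 2 higher were Isg15 and Bst2. Among the lower ones, Ifit1 went from 45.2 CPM (SHF AngII) to 22.3 CPM (CNC AngII) and Oasl2 from 42.4 to 20.2 CPM. The other 2 that were lower were Gbp7 and Igtp. The difference between the subsets was not tested, and the one without Pi16 holds 127 cells in CNC AngII. H2-D1 stood at 545, 289 and 383 CPM with Pi16 and 592, 306 and 406 CPM without.

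MHC class II members were low in smooth muscle and fibroblast cells, and their level in CNC AngII depended on cells that carried macrophage transcripts. The 5 genes summed to 10.3, 7.17 and 35.2 CPM in smooth muscle cells and to 36.3, 5.32 and 37.5 CPM in fibroblast cells, against 18360.0, 4111 and 1212 CPM in macrophage cells. None reached a mean of 10 CPM in either comparison. H2-Aa and H2-Ab1 encode the chains of one class II molecule. In fibroblast cells H2-Aa stood at 8.86, 0.779 and 11.6 CPM and H2-Ab1 at 13.1, 1.07 and 11.4 CPM. H2-Eb1, a chain of the other class II molecule, stood at 12.4, 1.74 and 9.69 CPM. The peptide loader H2-DMa stood at 1.93, 1.67 and 4.89 CPM. All 4 were thus lower in SHF AngII than in SHF baseline, H2-DMa only slightly (log2 ratio -0.13).

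Among smooth muscle cells, class II was highest in CNC AngII. H2-Aa stood at 1.83, 1.11 and 9.42 CPM, H2-Ab1 at 4.43, 3.08 and 11.8 CPM, H2-Eb1 at 3.32, 1.76 and 11.0 CPM and H2-DMa at 0.711, 1.15 and 2.89 CPM. Ciita, the factor that switches class II genes on, was at or near 0 in both classes: 0, 5 and 5 UMIs in smooth muscle cells, where a count of 0 allows up to 0.102 CPM, and 1, 3 and 0 UMIs in fibroblast cells, where it allows up to 0.262 CPM. The invariant chain Cd74, which guides class II molecules to peptide loading, stood at 19.3, 3.57 and 35.1 CPM in smooth muscle cells and at 23.3, 2.81 and 38.7 CPM in fibroblast cells.

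Macrophage transcripts in the gated cells were counted beside class II. A UMI of C1qa, C1qb or Lyz2 was present in 0.177%, 0.280% and 44.1% of smooth muscle cells and in 3.99%, 10.3% and 44.7% of fibroblast cells. With those cells left out, the class II sum was 10.3, 6.43 and 5.45 CPM in smooth muscle cells. In fibroblast cells it was 26.6, 4.22 and 7.34 CPM. Leaving out only the cells that met both the fibroblast and the macrophage gate gave 35.2, 4.08 and 7.43 CPM in fibroblast cells, so 8 of 842 cells held most of the class II UMIs of CNC AngII there. With either group of cells left out, SHF baseline fibroblast cells lay above both AngII libraries, whereas over all cells they lay just below CNC AngII. Few baseline cells carried it: after thinning, 96.5% had no class II UMI, 0.776% had 5 or more and 1 cell had 91. Per UMI sequenced the baseline level was higher outside the Pi16 subset, although 719 class II UMIs lay inside it and 656 outside: the sum was 21.9, 5.40 and 6.99 CPM with Pi16 and 129.4, 4.47 and 250.9 CPM without, the last of which includes the cells that met 2 gates. Over the 10 macrophage markers, SHF baseline fibroblast cells summed to 10.3 CPM, below SHF AngII at 17.9 CPM. Dendritic markers, 6 in number, summed to 6.25, 3.10 and 3.58 CPM and B cell markers to 0.158, 0.245 and 0.262 CPM in fibroblast cells. The SHF baseline file lists only 5 of the 6 dendritic and 2 of the 4 B cell markers, so its sums cover fewer genes. Endothelial markers, 4 in number, summed to 52.5, 11.3 and 11.5 CPM there, and T cell markers to 0.132, 1.49 and 1.57 CPM. Endothelial and dendritic markers thus had their highest sums where SHF baseline class II was high, and their part in it was not tested.

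**Figure D4:**
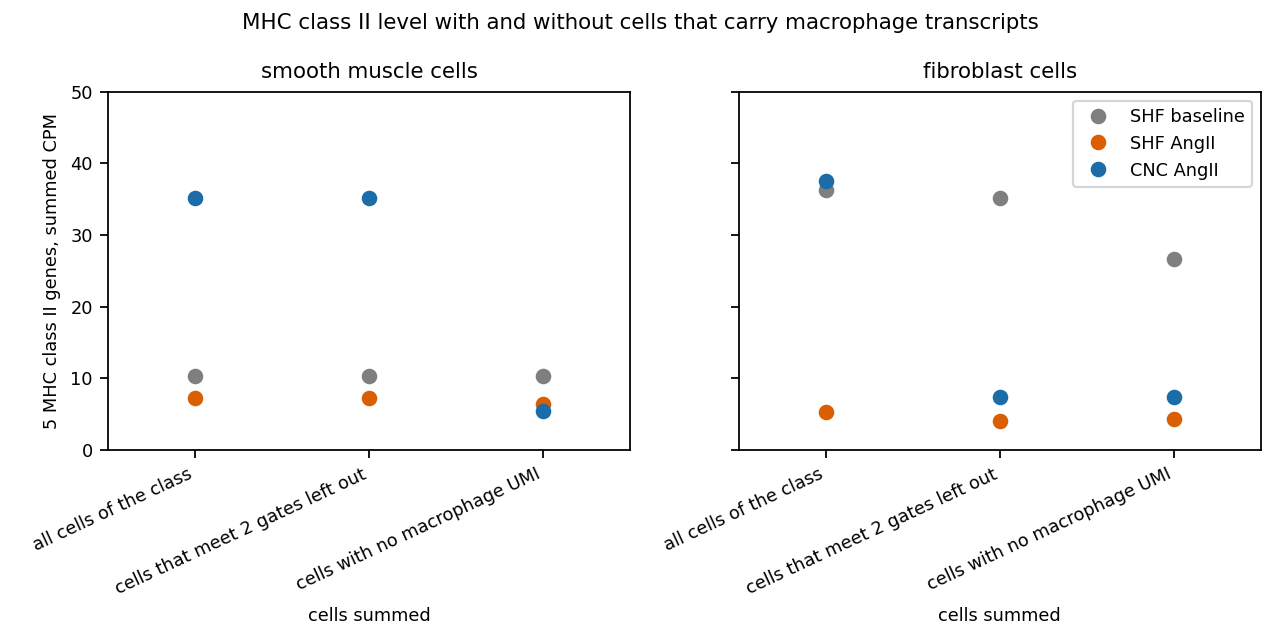
Summed level of the 5 class II genes in CPM, for smooth muscle cells (left) and fibroblast cells (right), from all cells of the class, without cells that met 2 gates, and from cells with no macrophage UMI, with 1 point per library. CNC AngII drops from 35.2 to 5.45 CPM in smooth muscle cells and from 37.5 to 7.34 CPM in fibroblast cells, while SHF baseline fibroblast cells stay at 26.6 CPM or more.

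In macrophage cells, CNC AngII is the library with cells enough to describe. There class I and class II were at their highest relative to the other classes of that library. B2m stood at 1602, 964 and 1633 CPM, H2-D1 at 1507, 971 and 1408 CPM, H2-K1 at 1331, 485 and 758 CPM and H2-T23 at 577, 80.9 and 138 CPM. Psmb8 stood at 518, 202 and 361 CPM, Psmb9 at 247, 94.4 and 131 CPM, Tap1 at 58.9, 60.7 and 45.7 CPM and Tapbp at 141, 87.6 and 91.9 CPM. The first 2 values of each rest on 8 and 13 cells and are given without comparison. Isg15 stood at 754, 324 and 157 CPM in macrophage cells, so that in CNC AngII it was lower than in fibroblast cells of the same library (346 CPM). Bst2 stood at 907, 243 and 563 CPM, Ifitm3 at 2791, 2096 and 2342 CPM and Ifitm2 at 1025, 1159 and 1589 CPM. Relative to fibroblast cells of CNC AngII, 12 of 20 interferon-stimulated members were higher and 8 lower in macrophage cells by any amount. All 8 class I and all 5 class II members were higher. At 1.5-fold, with no minimum level, 7 interferon-stimulated members were higher and 4 lower. By that rule 7 class I and 5 class II members were higher. The share of all genes higher in macrophage cells was not computed, so these counts have no background beside them.

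The remaining interferon-stimulated members were moderate in macrophage cells of CNC AngII. In the 3 libraries Ifit1 stood at 35.3, 13.5 and 47.5 CPM, Ifit2 at 23.6, 0 and 23.3 CPM and Ifit3 at 306, 33.7 and 56.8 CPM. Irf1 stood at 106, 94.4 and 40.7 CPM and Irf7 at 177, 33.7 and 80.1 CPM. In CNC AngII, Ifit1, Ifit3 and Irf1 were thus below their fibroblast level and Ifit2 and Irf7 above it. Rtp4 stood at 58.9, 33.7 and 112 CPM, Ifi35 at 106, 60.7 and 76.0 CPM, Oasl2 at 153, 33.7 and 56.0 CPM and Usp18 at 58.9, 6.74 and 19.98 CPM. The GTPases stood at 94.2, 0 and 12.5 CPM (Gbp2), 70.7, 20.2 and 49.3 CPM (Gbp7) and 153, 0 and 17.4 CPM (Igtp). A count of 0 in the 13 SHF AngII cells allows up to 20.2 CPM. The other 4 members (Irf9, Stat2, Rsad2 and Gbp3) lay between 13.0 and 39.2 CPM in CNC AngII.

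Most class II UMIs of the CNC AngII macrophage cells lay in a minority of the cells. H2-Aa stood at 5276, 1382 and 355 CPM, H2-Ab1 at 5406, 1254 and 393 CPM, H2-Eb1 at 7089.6, 1301 and 371 CPM, H2-DMa at 542, 148 and 89.9 CPM and Ciita at 47.1, 27.0 and 3.08 CPM. After thinning, 64.0% of the CNC AngII macrophage cells had no class II UMI, and the tenth of cells with the most held 93.6% of class II UMIs. Cells with a UMI of Ccr2, a receptor of monocyte-derived cells, and none of Lyve1, a marker of resident vessel-wall macrophages, numbered 286 and summed to 6787 CPM of class II. The 1349 cells with a Lyve1 UMI summed to 255 CPM, and the 129 cells with neither to 1406 CPM. The class I sum was 4122, 4631 and 4722 CPM in those 3 subsets, and Isg15 stood at 142, 153 and 257 CPM. Dendritic markers summed to 13.6 CPM over all CNC AngII macrophage cells, against 2.94 CPM in smooth muscle and 3.58 CPM in fibroblast cells of that library. The part of dendritic cells in the class II sums was not tested.

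Genes around the module were taken from fixed lists. Ligands were barely detected: Ifng had no UMI in any class, and Ifnb1, listed only in the AngII files, had none in smooth muscle or fibroblast cells and 5 UMIs in the CNC AngII macrophage cells. A count of 0 allows up to 0.0313 CPM in the smooth muscle cells and 0.262 CPM in the fibroblast cells of CNC AngII. Of 14 receptors and signalling genes, 8 were above the minimum in smooth muscle cells, with 1 higher and 3 lower in SHF AngII than in SHF baseline, and 11 in fibroblast cells, with 0 higher and 4 lower. Those comparisons had 15.6% and 27.6% of all genes lower. The feedback inhibitor Socs3 stood at 286, 115 and 95.2 CPM in smooth muscle cells and 671, 181 and 179.9 CPM in fibroblast cells. Socs1, another inhibitor, stood at 54.5, 24.5 and 24.8 CPM in fibroblast cells. Both inhibitors were lower in the AngII libraries. Ifngr1 stood at 143, 79.2 and 79.8 CPM and the repressor Irf2 at 49.4, 29.8 and 31.3 CPM in fibroblast cells. In smooth muscle cells Irf2 stood at 38.9, 23.5 and 21.8 CPM and Jak2 at 20.2, 12.9 and 13.2 CPM, whereas Ifnar2 was higher at 49.1, 89.3 and 82.5 CPM.

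Of 9 nucleic acid sensors, 5 were measured in fibroblast cells and 2 were higher in SHF AngII, where 10.5% of all genes were higher and 27.6% lower. Zbp1, a sensor of left-handed nucleic acids, stood at 4.88, 35.9 and 44.1 CPM, a log2 ratio of 2.65. Tmem173, the adaptor STING, stood at 8.26, 25.9 and 20.7 CPM, a log2 ratio of 1.54. Of 41 further interferon-stimulated genes, 19 were measured there, 3 higher and none lower, beside the same 10.5% and 27.6% of all genes. These were the chemokine Cxcl10 at 10.1, 46.1 and 41.6 CPM, Lgals3bp at 44.98, 80.0 and 96.7 CPM and Ly6e at 144, 247 and 339 CPM. In smooth muscle cells 5 of the 41 were measured, none differing by 1.5-fold between the SHF libraries. In CNC AngII, Ifi27l2a was higher in smooth muscle cells (10.5, 14.5 and 65.4 CPM, log2 ratio 2.10 over SHF AngII), a gene that stood at 5843 CPM in the macrophage cells of that library.

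Among 16 further class I genes, 12 were measured in fibroblast cells, 2 higher and 2 lower in SHF AngII, against 10.5% and 27.6% of all genes. The chaperone Pdia3 stood at 367, 683 and 657 CPM and the proteasome activator Psme2 at 113, 185 and 181 CPM. H2-Q4, a nonclassical class I gene of the same family as H2-D1, stood at 72.6, 16.5 and 21.7 CPM, and Tap2, the other transporter subunit, at 38.7, 22.7 and 22.7 CPM. In smooth muscle cells Pdia3 stood at 189, 391 and 387 CPM and the chaperone Calr at 439.8, 690.4 and 720.2 CPM, both 1.5-fold higher, and Tap2 at 19.5, 11.3 and 7.74 CPM, lower. Psmb10, the remaining immunoproteasome subunit, stood at 65.6, 76.9 and 88.1 CPM in fibroblast cells and did not differ by 1.5-fold. Of 11 further class II genes 2 were measured in each class, and Cd74 was the 1 that was lower in SHF AngII than in SHF baseline and higher in CNC AngII than in SHF AngII.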

How the data were processed

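Droplet-based single-cell RNA was measured in 3 libraries, 1 per group, per the labels. The deposited files hold raw UMI counts per gene and barcode, with no normalisation. The submitters' processing notes name fastp, STAR 2.5, HTSeq 0.6.1 and mm10 without a role for each. The baseline file lists 18760 gene rows and both AngII files 32285. Names were matched directly or, for 513 names, through RefSeq synonyms, and 13 repeated names were left out. Barcodes with 500 or more genes and a mitochondrial share of 10% or less passed, and doublets marked by Scrublet in scanpy 1.11.5 (expected rate 8e-06 times the number of cells, seed 0) were removed: 207, 192 and 279 cells. This left 8374, 9299 and 10194 cells with medians of 10315.5, 13325 and 12609.5 UMIs, of which 25.9%, 21.5% and 11.9% met no gate.

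UMIs were summed per library and class and scaled to the total of the same cells (CPM). Each count is a transcript molecule's 3′ end, so levels were not scaled by length. Ratios are log2((CPM + 1)/(CPM + 1)). With 1 library per group, no test was run. Intervals at 95% are exact Poisson for levels, exact Clopper-Pearson for shares and conditional binomial for raw ratios, and cover counting error only. A count of 0 was bounded at 3 UMIs. The ratio calculation was tested on simulated data. Python 3.11.15, numpy 2.4.6, scipy 1.17.1 and pandas 2.3.3 were used, with TMM factors from edgeR 4.0.16. Alternatives changed the cell filter, doublet removal, gates, scaling, depth, pseudocount and minimum level. Ratios after thinning rest on 2496, 1443 and 486 fibroblast cells and 2215, 4061 and 5327 smooth muscle cells. These are other sets than the thinned cells whose UMIs were counted per cell.

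Members and lists were chosen with earlier results of these data known. All 33 members could be named. Values in every library and class were given for those with at least 50 CPM in a class or a 1.5-fold ratio, and genes of the fixed pathway lists were named at 1.5-fold or beside a member. A gene of those lists is not reported here. Of 100 pathway genes 98 were found in the files. Marker lists for T cells, B cells, dendritic and endothelial cells were summed in the same way. Promoter windows were RefSeq's, and gene positions GENCODE M21 (GRCm38).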

Additional observations from a re-analysis of the deposited data

Results flagged for a closer look

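Members are listed here where smooth muscle and fibroblast cells lay on opposite sides of 0 under the same contrast, with counting intervals that did not cross 0. With 1 library per group, how the classes differ was not tested. For SHF AngII over SHF baseline these were Ifi35, with a log2 ratio of -0.13 in smooth muscle cells and 0.42 in fibroblast cells, and H2-K1, with 0.34 and -0.21. The smooth muscle value of Ifi35 was 0.04 under TMM scaling.

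For CNC AngII over SHF AngII, 6 members lay below 0 in smooth muscle cells and above 0 in fibroblast cells. Isg15 stood at -0.12 and 0.55, Bst2 at -0.11 and 0.48, and Ifitm3 at -0.37 and 0.27. Ifi35 stood at -0.30 and 0.25, B2m at -0.07 and 0.23, and H2-K1 at -0.09 and 0.22. The list medians showed the same sides, with -0.12 and 0.26 for the interferon-stimulated members and -0.08 and 0.28 for the class I members. All of these are under 1.5-fold. Macrophage markers were higher in CNC AngII in both classes (145 and 113 CPM, against 2.33 and 17.9 CPM in SHF AngII), and their part in these values was not tested. Leaving out cells with a macrophage UMI gave interferon-stimulated medians of -0.31 and 0.25. That step took out 44.1% and 44.7% of the CNC AngII cells but 0.280% and 10.3% of the SHF AngII cells. It leaves free RNA in the cells kept.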

How the results depend on the processing

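No paired analysis was possible because each group is 1 library, and for the same reason no replicate could be left out. Of 803 values of single members under the alternatives, 637 moved by less than the half-width of their counting interval, 166 moved by more and 0 of the called ratios changed sign. The 16 ratios past 1.5-fold gave 176 such values, of which 162 stayed past the line in the same direction. That count does not ask whether the mean still reached the minimum level. The other 14 belonged to Ifitm3 in smooth muscle cells and to Oasl2, Usp18, Gbp7, H2-T23, Tapbp and Ifit2 in fibroblast cells. All values below are log2 ratios, list medians for interferon-stimulated and class I members and ratios of sums for class II, and the causes of the changes were not tested.
For SHF AngII over SHF baseline in smooth muscle cells, the interferon-stimulated median was 0.11 over 7 members. It was -0.042 with the stricter cell filter, -0.014 without macrophage UMIs, -0.0068 with stricter gates and -0.034 after thinning. Each of these settings left 6 members above the minimum, so these medians are not over the same genes. In each of them 1 member counted as higher, against 2 in the main setting. The median was 0.29 with TMM scaling, 0.067 with totals free of mitochondrial and ribosomal protein genes, and 0.21 with no minimum level. The class I median of -0.18 was -0.64 with the stricter cell filter (120 baseline cells), -0.0031 with TMM scaling, -0.35 with the reduced totals, -0.12 when cells were averaged by their shares and -0.29 with no minimum. Class II, -0.47, was -0.0067 with the stricter cell filter, -0.76 with stricter gates, -0.18 per cell and -0.24 with a pseudocount of 10 CPM. In fibroblast cells the interferon-stimulated median of 0.61 was 0.79 with TMM scaling and 0.37 with the larger pseudocount, and the class I median of -0.28 was -0.083 with TMM scaling. Class II, -2.56, was -2.09 with the stricter cell filter, -2.83 without cells that met 2 gates, -2.90 after thinning, -2.34 per cell and -1.59 with the larger pseudocount.
For CNC AngII over SHF AngII in smooth muscle cells, the interferon-stimulated median of -0.12 was -0.29 with the stricter cell filter and -0.31 without macrophage UMIs. The class I median of -0.08 was -0.014 with doublets kept, -0.021 after thinning and -0.016 with no minimum. Class II, 2.15, was 2.89 with the stricter cell filter, 2.41 with doublets kept, -0.21 without macrophage UMIs, 1.68 after thinning, 1.54 per cell and 1.396 with the larger pseudocount. In fibroblast cells class II, 2.61, was 3.22 with doublets kept, 0.73 without cells that met 2 gates, 0.68 without macrophage UMIs, 3.17 with stricter gates, 2.31 per cell and 1.63 with the larger pseudocount. The interferon-stimulated and class I medians there moved by less than their counting intervals under every alternative run. Depth limits the members below 10 CPM, where most cells hold no UMI.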

Other observations

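Of the 33 members, 11 lie on chromosome 17, among them the class I and class II genes of the MHC. An exon of 6 members overlaps an exon of another gene on the same strand in GENCODE M21 (Irf9, Ifitm2, Rtp4, Gbp7, Igtp and Tapbp), and 11 overlap one on the other strand, such as Psmb9 with Tap1. How reads of such pairs were counted is not given in the sources used here.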
